A study of Homo sapiens with 18 samples.

Results

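The TCEAL and BEX genes are small, related genes on the long arm of the X chromosome. Of the 20329 genes counted, 10 were described here by name, namely TCEAL1, TCEAL3, TCEAL4, TCEAL8, TCEAL9, BEX1, BEX2, BEX3, BEX4 and BEX5, and 4 further TCEAL genes served for comparison. TCEAL9, formerly WBP5, was chosen by its measured level in these libraries and was compared with its 9 paralogs, so its own values are given as a description with no test.

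TCEAL stands for transcription elongation factor A like. The TCEAL proteins resemble TFIIS, the factor that helps stalled RNA polymerase II to resume elongation, and several of them affect transcription of reporter genes. The BEX proteins, brain expressed X-linked, are small and largely unfolded, and BEX1 and BEX3 bind the intracellular part of the p75 neurotrophin receptor, which signals cell death or survival. Both families arose in placental mammals from a shared ancestor and are expressed most strongly in brain.

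RNA was sequenced from HAP1, a near-haploid human cell line derived from a leukaemia line that carries mutant p53. WAPL releases cohesin from DNA and SCC4, encoded by MAU2, helps to load it. The 18 libraries comprised 6 groups of 3, and all groups share the HAP1 background. Control A and control B were wild-type HAP1. ΔWAPL clones 3.3 and 1.14 carried a Blasticidin resistance cassette in WAPL, ΔSCC4 carried a Puromycin resistance cassette in MAU2, and ΔWAPL/ΔSCC4 was made by disrupting SCC4 in ΔWAPL cells. The titles of ΔWAPL/ΔSCC4 carry the clone number 3.3, so this line and ΔWAPL 3.3 are not separately derived. Each knockout line was 1 clone, and no source says that replicates came from separate cultures, so the p-values measure the spread between these libraries, which may be technical. The titles name the controls A and B, while the assignment of clone 3.3, ΔSCC4 and ΔWAPL/ΔSCC4 to control A and of clone 1.14 to control B rests on the run and lane numbers of the deposited files. Clone and set of libraries cannot be told apart.

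The library totals on genes ranged from 10007646 to 20711127 counts, with a median of 16177867. WAPL fell from a mean of 99.2 to 43.7 CPM (counts per 1000000 counts of the library, scaled by TMM normalization) in ΔWAPL 3.3 and from 120.6 to 41.3 CPM in ΔWAPL 1.14, and was at 45.5 CPM in ΔWAPL/ΔSCC4. MAU2 was at 56.1 to 65.6 CPM in the groups with intact SCC4 and at 0.702 and 0.934 CPM in ΔSCC4 and ΔWAPL/ΔSCC4. Of the blood, fibroblast, epithelial and neuronal markers, 1 of 8, 1 of 6, 2 of 5 and 2 of 7 had a median of at least 1 CPM, and the blood genes PTPRC, CD34, CD33, MPO, SPI1 and GATA1 were at or near 0. KIT, of the same blood list, was at 6.79 to 23.1 CPM. The summed level of the epithelial list ranged from 41.7 to 130.5 CPM over the libraries. Of its genes KRT8 was lower in ΔWAPL 3.3, ΔWAPL 1.14 and ΔSCC4 (log2 fold changes -1.15, -2.14 and -1.61) and higher in ΔWAPL/ΔSCC4 (2.57), all past the threshold of the edgeR test. EPCAM was lower in ΔWAPL 3.3 and 1.14 (-1.93 and -3.89). It passed the filter on low counts only through the controls there, so its values are a description. KRT18, the epithelial gene of highest median level, did not pass in any comparison. In ΔWAPL/ΔSCC4 over control A, KIT was lower (-1.21, edgeR adjusted p = 0.0025) and the fibroblast gene COL1A1 higher (1.145, adjusted p = 0.00020). THY1, also of the fibroblast list, was lower there and in ΔWAPL 1.14 (-1.16 and -1.77). It was too low to be tested between ΔWAPL/ΔSCC4 and ΔWAPL 3.3, so its values are a description. The part of these marker genes in the results below was not tested.

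The members lie between BEX5 and TCEAL1 on the X chromosome of GRCh37. By the lowest coordinate of each gene, BEX5 stands apart, 1202737 bases before TCEAL9, and BEX1, BEX4, TCEAL8 and BEX2 lie 293838, 141381, 103494 and 47143 bases before it. BEX5, BEX1, TCEAL8 and BEX2 are on the minus strand, so for them this coordinate is the 3′ end. TCEAL9 itself occupies chrX:102611417-102613390 on the plus strand. BEX3 follows 19906 bases after its start, and TCEAL4, TCEAL3 and TCEAL1 start 219742, 250962 and 272215 bases after it. TCEAL9 had a single coding exon in its longest coding model, of 312 bases, as had TCEAL8 with 351 bases and BEX3 with 333 bases. Over aligned coding bases TCEAL9 was 64.4 to 70.9% identical to the other TCEAL members, 67.6% to TCEAL8, and 56.4 to 60.9% to the BEX members. The closest pair among the members was BEX1 and BEX2, at 94.4%.

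The promoters are shown because those of TCEAL9 and TCEAL8, the members whose levels differed most between groups, hold a similar stretch of 30 bases. Whole windows were compared only by their longest exact shared run, and whether the stretch bears on the levels was not tested. RefSeq promoter windows of 300 bases (250 before to 50 after the start, table build GRCh38.p14) were found for all 10 members, and each window matched 1 place on the X chromosome of GRCh37 exactly. The palindrome CACGTG, the E-box bound by several basic helix-loop-helix factors, was searched on both strands. Searched in the same way were the TATA box TATAAA, the CCAAT box and the GC box. CACGTG was found in a window of 8 of 10 members, and in 8.77% of the 27305 genes of the table. TCEAL9 and BEX5 held none. The 30 bases below run from 12 before CACGTG to 12 after it, with the 6 central bases in capitals, read 5′ to 3′ on the gene's strand from the RefSeq windows.
TCEAL8: tgacgcgactctCACGTGaccaggagtcga
TCEAL9: tgacgtagatctCATGTGaccaggagtcga
TCEAL1: acgcgcgtccctCACGTGaccaggagcctc
TCEAL3: tgacgcggcgctCACGTGacccgccgggcg
TCEAL4: ggctgcggcattCACGTGatctgcacgggc
BEX1: acgcacggccctCACGTGaccgggagctgc
BEX2: tgacaacagccaCACGTGatcggccaacac
BEX3: acgcgcggccctCACGTGacccagagctgc
BEX4: tgacaacagcccCACGTGaccggccaacac
BEX5: tgacgtgaccctTAGGAGacccagagccaa

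For TCEAL9 and BEX5, which lack the palindrome, the stretch shown is the ungapped match closest to that of TCEAL8, so its likeness is the highest that any placement gives. The TCEAL9 stretch was identical to that of TCEAL8 at 25 of 30 bases. Counted from 1 at the 5′ end, with the base of TCEAL8 first, the differences were C6T, G7A, A8G, C9A and C15T, and the last of these lies in the palindrome. The other members were identical to TCEAL8 at 16 to 22 bases, 6 of which are the palindrome by construction in all but BEX5. The longest run shared exactly by the TCEAL9 window was 31 bases with TCEAL8, against 12 with BEX3 and 11 with TCEAL1 among the other members. TCEAL5, which is not a member, shared a run of 18 bases with it. A match is a description of letters and says nothing of which factor binds.

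On GRCh37 the TCEAL9 stretch is chrX:102611385-102611414 on the plus strand, before the annotated first exon. The TCEAL8 stretch is chrX:102510097-102510126 on the minus strand, with 24 of its bases in an annotated exon at the 5′ end of the gene and none coding. The BEX3 stretch is chrX:102631407-102631436 on the plus strand and lies in a noncoding part of an exon. The stretches of TCEAL1 and TCEAL3, chrX:102883835-102883864 and chrX:102862799-102862828, lie in introns of longer transcripts, and that of TCEAL4, chrX:102840421-102840450, likewise in a noncoding exon part. Those of BEX4 (chrX:102470005-102470034), BEX1 (chrX:102319129-102319158) and BEX5 (chrX:101410973-101411002) lie before the gene, and that of BEX2 (chrX:102565920-102565949) reaches 16 bases into its first exon. None of the members held TATAAA, which 13.99% of genes in the table did. CCAAT was in windows of TCEAL8, BEX1, BEX3 and BEX5, and the GC box, spelled GGGCGG, in those of 8 members including both TCEAL9 and TCEAL8, against 39.72% and 48.3% of genes. TCEAL9 had 10 CG dinucleotides in its window and TCEAL8 had 14, and the median over all windows was 14.

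In control A, levels per length of exon (RPKM) put BEX3 far above the other members, at 200.3 ± 15.8 (SD, n = 3 here and below). TCEAL4 (28.3 ± 3.02) and BEX4 (27.2 ± 2.37) followed, and their ranges overlapped. TCEAL1 was at 16.8 ± 1.57, BEX5 at 11.9 ± 0.588, TCEAL9 at 9.38 ± 0.369 and TCEAL3 at 6.31 ± 0.383 RPKM, with no overlap between neighbours in that order. TCEAL8 was low, at 1.41 ± 0.482 RPKM, and BEX2 lower still, at 0.238 ± 0.191 RPKM. BEX1 had no count in any of the 18 libraries, which allows a level of up to 0.0104 CPM over all of them, counting error only.

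TCEAL9 was high in both sets of controls and low in every knockout line. In control A it was at 19.2, 18.6 and 17.8 CPM, from 295, 301 and 298 counts. In ΔWAPL 3.3 it was at 0.399, 0.707 and 0.532 CPM, from 8, 10 and 8 counts. The knockout libraries all lay far below the controls, and the summed counts gave a level 35 times higher in control A, with an exact 95% interval of 23.7 to 53.9 that covers counting error only. In RNA from many cells, fewer cells expressing a gene and less RNA per cell cannot be told apart.

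TCEAL9 was lower still in the SCC4 lines. ΔSCC4 libraries held 1, 1 and 0 TCEAL9 counts, a mean of 0.0556 ± 0.0515 CPM, and the ratio of control A to ΔSCC4 was 367 with a counting interval of 101 to 3030. ΔWAPL/ΔSCC4 libraries held 2, 4 and 2 counts, or 0.114, 0.246 and 0.113 CPM, and the ratio was 119 (60.2 to 277). Every library of both lines was below every ΔWAPL 3.3 library, and ΔWAPL 3.3 was 3.4 times higher than ΔWAPL/ΔSCC4, with an interval of 1.5 to 8.69. ΔSCC4 and ΔWAPL/ΔSCC4 did not overlap either, but at 2 and 8 counts in all their order rests on few reads.

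Clone 1.14 retained part of the TCEAL9 RNA. Control B was at 10.5, 9.14 and 13.5 CPM, from 153, 136 and 240 counts. ΔWAPL 1.14 was at 4.13, 4.45 and 4.59 CPM, from 78, 75 and 76 counts. The groups did not overlap, and the ratio was 2.55 (2.18 to 3). Every ΔWAPL 1.14 library lay above every ΔWAPL 3.3 library. The controls themselves differed, since every control A library was above every control B library and the ratio was 1.65 (1.48 to 1.84). The order of the means was therefore control A, control B, ΔWAPL 1.14, ΔWAPL 3.3, ΔWAPL/ΔSCC4 and ΔSCC4, with no overlap between neighbours.

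**Figure D1:**
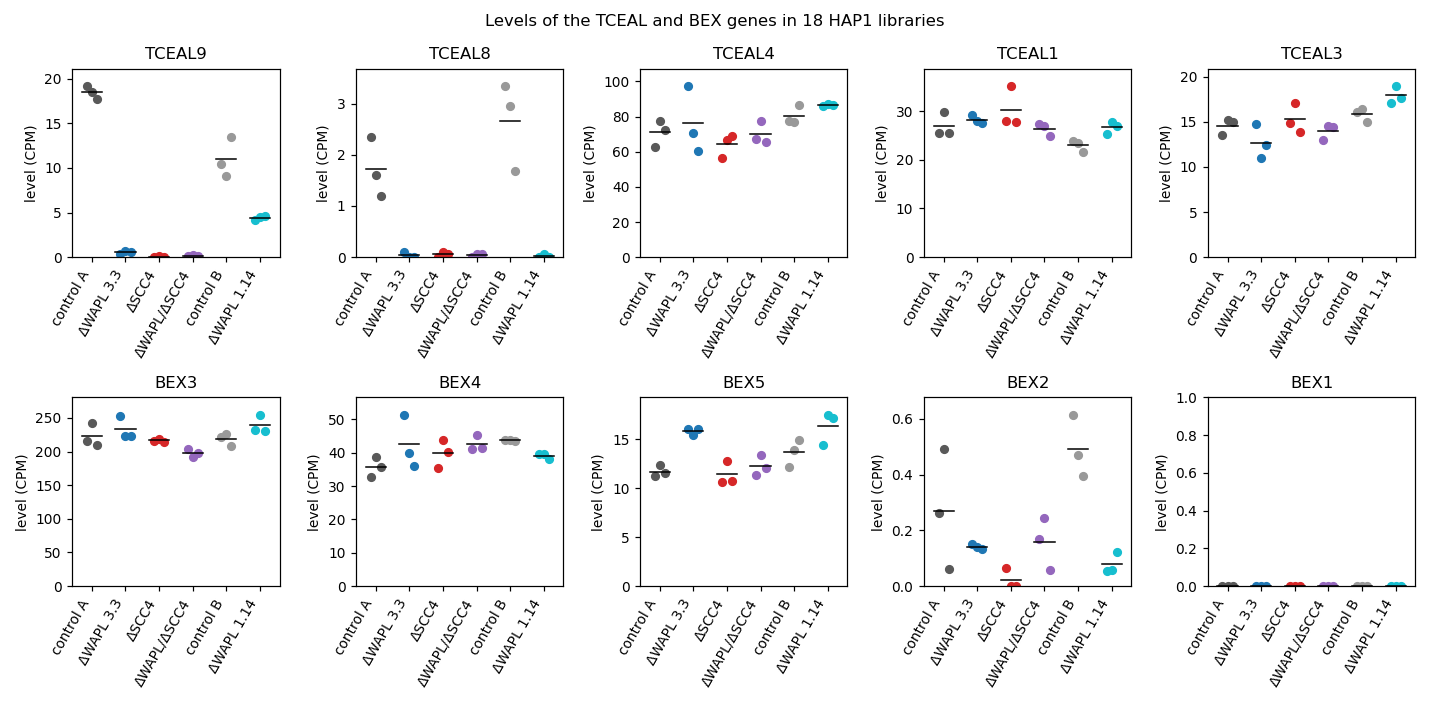
Level in CPM (linear axis from 0, its own range in each panel) of the 10 members in the 6 groups, 1 point per library and a bar at the group mean. TCEAL9 and TCEAL8 are near 0 in the knockout lines, except TCEAL9 in ΔWAPL 1.14 at 4.13 to 4.59 CPM, while BEX3 stays between 191.9 and 255 CPM in all 18 libraries.

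TCEAL8, a short TCEAL gene of the same structure, was nearly absent from all 4 knockout lines. In control A its counts were 36, 26 and 20, or 2.34, 1.60 and 1.19 CPM. In control B they were 49, 44 and 30, or 3.35, 2.96 and 1.69 CPM. The knockout libraries held 0, 1 or 2 counts each, namely 2, 0 and 0 in ΔWAPL 3.3, 0, 1 and 1 in ΔSCC4, 0, 1 and 1 in ΔWAPL/ΔSCC4 and 0, 1 and 0 in ΔWAPL 1.14. No knockout library came near the lowest control, so the groups did not overlap in any of these comparisons. The 3 comparisons against control A share that group and are not independent of each other. ΔWAPL/ΔSCC4 also carries the clone number of ΔWAPL 3.3.

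The ratios of summed counts, controls over knockout, were 41.8 (exact 95% interval 11.2 to 351) in ΔWAPL 3.3, 136 (24 to 5420) in ΔWAPL 1.14, 33.6 (9.02 to 282) in ΔSCC4 cells and, for the double knockout, 43.7 (11.7 to 367), and the intervals cover counting error only. The log2 fold changes fitted by edgeR were -5.17 ± 0.63 (SE), -6.63 ± 0.69, -4.87 ± 0.62 and -5.21 ± 0.60 in the same order of lines. At these counts the fitted values depend on the prior count and the SE may be too small. TCEAL8 passed the filter on low counts only through its control libraries, so once tested it had to differ, and its fold changes and calls are given as a description. TCEAL8 was near 0 in both ΔWAPL clones, at 1 count over the 3 libraries of clone 1.14 and 2 over those of clone 3.3. The difference between the effects in the clones was 1.47 ± 1.88 on the log2 scale and did not pass (edgeR, adjusted p = 0.86), an error too wide to call the effects alike.

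The quasi-likelihood test of edgeR was run on each line, with p-values adjusted by Benjamini-Hochberg over all genes tested. The single paralog past the threshold in each knockout line was TCEAL8, which entered the test only through its controls, so these counts support nothing. In ΔWAPL 3.3, 1 of the 7 paralogs tested was called, lower, while 8.07% of the 12489 genes tested were called, 4.17% higher and 3.9% lower. In ΔWAPL 1.14 it was again 1 of 7, beside 20.1% of 12636 genes, 8.7% higher and 11.4% lower. In ΔSCC4 it was 1 of 7, beside 9.49% of 12503 genes, 5.45% higher and 4.03% lower. With libraries of these 2 groups paired by replicate as a block, the genes called went from 1186 to 5754. That pairing was chosen from these same counts and no label gives it, so the larger number is no support. In ΔWAPL/ΔSCC4 it was 1 of 7, beside 7.95% of 12594 genes, 4.65% higher and 3.3% lower. A share of 1 in 7 is near these backgrounds, so the count says nothing particular about the paralogs as a group.

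Comparisons that start from other lines called none of the paralogs. Between ΔWAPL/ΔSCC4 and ΔWAPL 3.3, 0 of 6 tested paralogs passed with edgeR and 0 with DESeq2, 2 had an unadjusted p under 0.05 with each tool, and 10.6% of 12544 genes passed, 6.05% higher and 4.55% lower. Between control B and control A, 0 of 7 passed with edgeR and 0 with DESeq2, 1 had an unadjusted p under 0.05 with each, and 0.64% of 12509 genes passed. For the difference between the ΔWAPL effects in clones 3.3 and 1.14, 0 of 7 passed with edgeR and 0 with DESeq2, with 2 and 1 under an unadjusted p of 0.05, against 2.65% of 12786 genes. For the difference between the effects of SCC4 loss with and without WAPL, 0 of 7 passed with edgeR and 0 with DESeq2, with 1 under an unadjusted p of 0.05 in each, against 11.3% of 12817 genes.

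**Figure D2:**
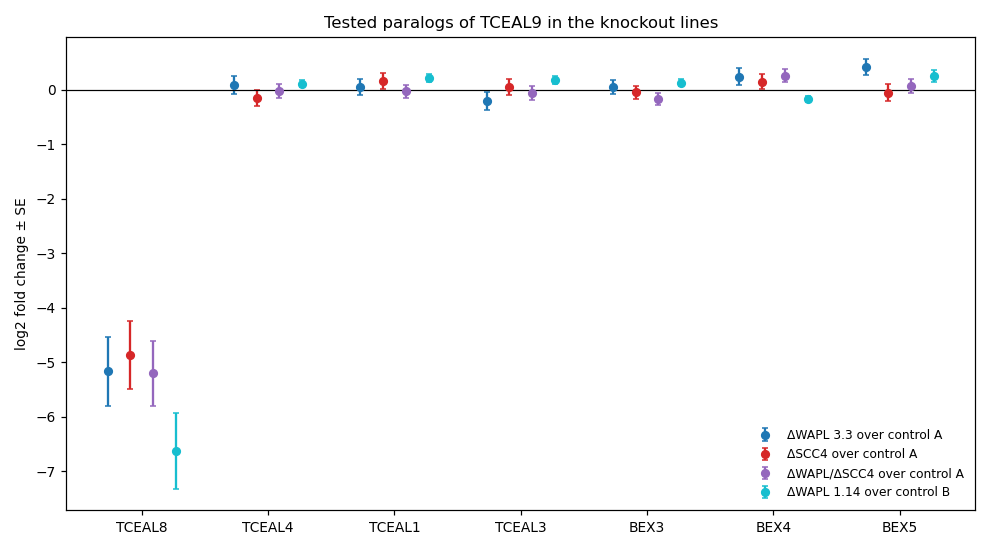
Log2 fold change of the 7 tested paralogs of TCEAL9 in each knockout line over its controls (points, with bars of ± 1 SE from the edgeR fit, 3 libraries against 3). TCEAL8 lies between -6.63 and -4.87 in the 4 lines, and every other paralog lies between -0.21 and 0.42.

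The remaining TCEAL members were detected in all libraries at levels that did not pass the test in any comparison. TCEAL4, the most abundant of them, ranged from 56.6 to 97.6 CPM with a median of 74.7 over the 18 libraries. Its group means ran from 64.2 ± 6.69 CPM in ΔSCC4 to 86.8 ± 0.621 CPM in ΔWAPL 1.14. One ΔWAPL 3.3 library, at 97.6 CPM, lay above the other 2 of its group at 70.5 and 60.5, and the ranges of that group and control A overlapped. TCEAL1 ranged from 21.7 to 35.2 CPM with a median of 27.2. In ΔWAPL 1.14 it was at 25.4, 27.8 and 27.0 CPM against 23.9, 23.4 and 21.7 CPM in control B. Those groups did not overlap, and the log2 fold change of 0.21 ± 0.08 did not pass (adjusted p = 0.090). TCEAL3 ranged from 10.96 to 19.0 CPM with a median of 14.9, and its log2 fold changes over the controls ran from -0.21 to 0.18.

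TCEAL1 and TCEAL3 are less certain than the others. Their exons share 287 bases on the same strand, and reads that HTSeq could assign to either gene are not counted. Of the exact 50-base stretches of TCEAL1 transcripts, 14.5% were also in transcripts of another gene, TCEAL3, and 19.2% of those of TCEAL3 were shared, with TCEAL1, TCEAL6 and TCEAL5. TCEAL9, TCEAL8, BEX3 and BEX5 shared none, and the share was at most 3.49% in the other members.

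Among the BEX genes, BEX3, which encodes a protein that binds the p75 receptor, had the highest level of the family in all groups. It ranged from 191.9 to 255 CPM with a median of 220.9, and its group means from 198 ± 5.88 CPM in ΔWAPL/ΔSCC4 to 239 ± 13.6 CPM in ΔWAPL 1.14. All 3 ΔWAPL/ΔSCC4 libraries were below every ΔWAPL 3.3 library, and the log2 fold change between them was -0.24 ± 0.11 (adjusted p = 0.19). BEX4 ranged from 32.6 to 51.4 CPM. It was at 39.6, 39.6 and 38.0 CPM in ΔWAPL 1.14 and at 43.6 to 43.8 CPM in control B, and this gap of -0.17 ± 0.05 on the log2 scale, with no overlap, did not pass (adjusted p = 0.074).

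BEX5 was higher in every ΔWAPL 3.3 library than in any control A library, without passing the test. It was at 16.0, 15.4 and 16.0 CPM in ΔWAPL 3.3 and at 11.2, 12.3 and 11.6 CPM in control A. The ΔWAPL 3.3 libraries were also above all ΔSCC4 libraries, at 10.7, 12.8 and 10.7 CPM, and above all ΔWAPL/ΔSCC4 libraries, at 11.3, 13.4 and 12.04 CPM. The log2 fold change was 0.42 ± 0.15 over control A (adjusted p = 0.12) and -0.37 ± 0.13 from ΔWAPL 3.3 to ΔWAPL/ΔSCC4 (adjusted p = 0.090). Both passed when all 18 libraries shared 1 estimate of the spread (adjusted p = 0.014 and 0.040). In ΔWAPL 1.14 BEX5 was at 14.4, 17.5 and 17.1 CPM against 12.2, 13.9 and 14.9 CPM in control B, which overlapped, with a log2 fold change of 0.25 ± 0.11 (adjusted p = 0.16).

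BEX2 had 56 counts in all 18 libraries and was removed by the filter on low counts in all comparisons. Control A held 4, 8 and 1 counts and control B 9, 7 and 7. ΔWAPL 1.14 held 1, 1 and 2 counts, and the ratio of control B to ΔWAPL 1.14 was 6.36 (2.17 to 25.3). Without a filter this comparison of BEX2 passed (log2 fold change -2.54, adjusted p = 0.013). ΔSCC4 held 1, 0 and 0 counts, a ratio of 10.7 (1.6 to 453) from a single read, and in ΔWAPL 3.3 and ΔWAPL/ΔSCC4 the counting intervals of the ratio included 1.

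**Figure D3:**
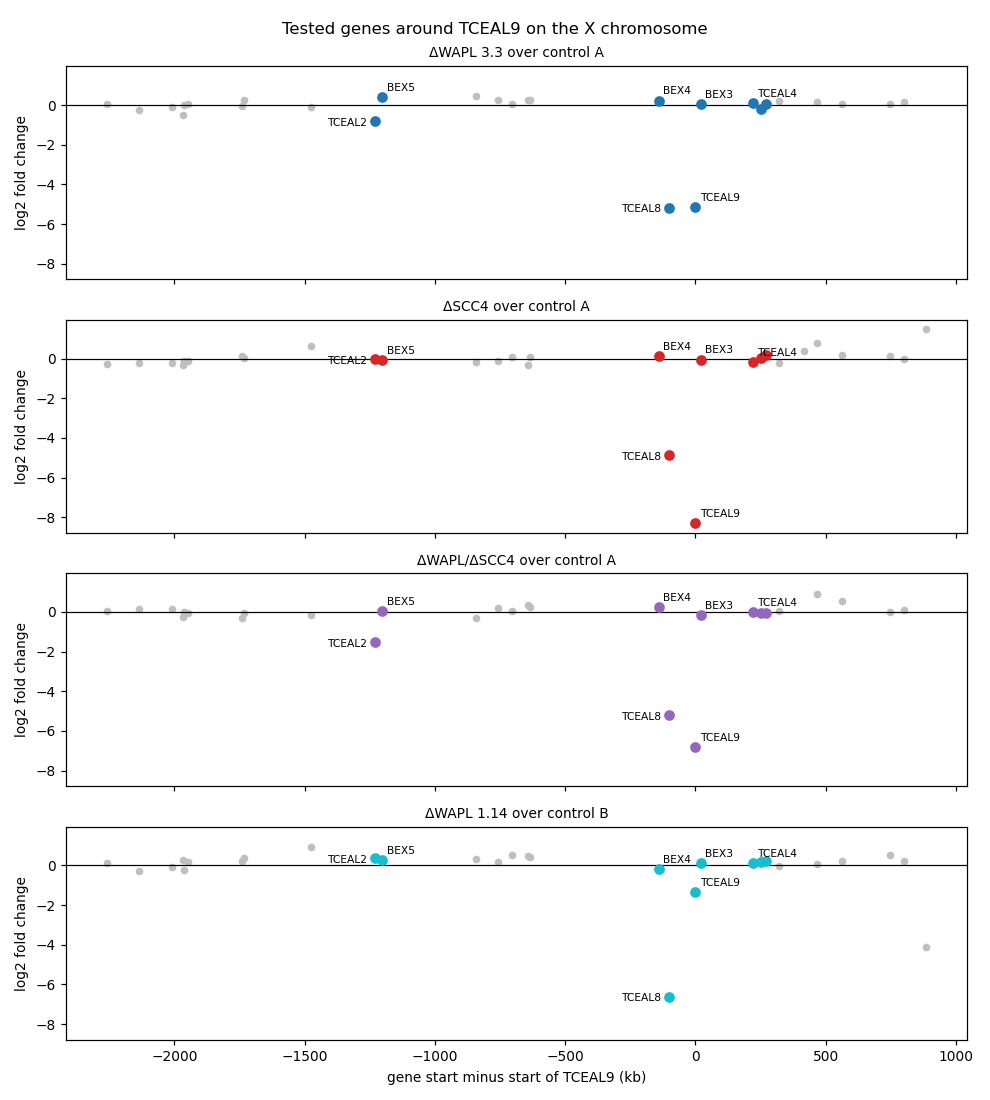
Log2 fold change of each tested gene around TCEAL9 in the 4 knockout lines, with TCEAL and BEX genes coloured and other genes in grey. The horizontal axis, labelled gene start, is the lowest coordinate of each gene minus that of TCEAL9 in kb. TCEAL9 and TCEAL8 lie far below the line at 0 while BEX4, BEX3 and TCEAL4 beside them lie near it, and TCEAL9 is shown as a description without a test.

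Of the genes between and beside TCEAL8 and TCEAL9, those that could be tested did not pass. BEX4 lies beyond TCEAL8, with the log2 fold changes 0.23, -0.17, 0.14 and 0.25 in ΔWAPL clones 3.3 and 1.14, in ΔSCC4 and in the double knockout, in that order. BEX3, next to TCEAL9 on its other side, had 0.05, 0.12, -0.05 and -0.17 in the same order. Between TCEAL8 and TCEAL9 lie TCEAL5, BEX2 and TCEAL7, with 23, 56 and 1 counts in all libraries, too few to be tested. The 26 other protein-coding genes within 1 Mb of the members leave out the ARMCX and GASP genes there, which are given below. Of these 26 genes, 13 to 16 were tested in a comparison. Their medians were 0.04, 0.15, -0.11 and 0.07 in those lines, against values from -0.0047 to 0.0015 over all genes tested. TMSB15A, a thymosin gene, was higher in ΔWAPL 3.3 (log2 fold change 0.47 ± 0.14, adjusted p = 0.047) and in ΔWAPL 1.14 (0.32 ± 0.07, adjusted p = 0.017), and lower in ΔWAPL/ΔSCC4 than in ΔWAPL 3.3 (-0.77 ± 0.11, adjusted p = 0.00018). The first of these calls was lost without any 1 of 5 of the 6 libraries (control A replicate 2 or 3 or any ΔWAPL 3.3 replicate, adjusted p = 0.079 to 0.23) and the second without control B replicate 1 (adjusted p = 0.058) or ΔWAPL 1.14 replicate 3 (adjusted p = 0.066). The homeobox gene ESX1, with 172 counts in all 18 libraries, was lower in ΔWAPL 1.14 (-4.10 ± 0.35) and higher in ΔSCC4 (1.47 ± 0.31). It was also higher in control B than in control A (1.91 ± 0.28), so the baselines of these fold changes differ. ESX1 passed the filter on low counts only through control B or ΔSCC4. Its values are therefore given as a description with no test. RAB9B, a GTPase gene, was higher in ΔWAPL/ΔSCC4 than in control A (0.89 ± 0.17, adjusted p = 0.0076) and than in ΔWAPL 3.3 (0.73 ± 0.17, adjusted p = 0.012), the latter lost without ΔWAPL 3.3 replicate 2 (adjusted p = 0.066). ZCCHC18 was higher in ΔWAPL 1.14 (0.54 ± 0.14, adjusted p = 0.039), which was lost without control B replicate 1 or ΔWAPL 1.14 replicate 1 or 3 (adjusted p = 0.12 to 0.14).

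Of the TCEAL genes that were not among the members, only TCEAL2 was tested in any comparison. TCEAL2, which lies near BEX5, was at 3.26, 5.55 and 3.34 CPM in control A and at 1.42, 1.23 and 1.58 CPM in ΔWAPL/ΔSCC4. These groups did not overlap, and the log2 fold change was -1.51 ± 0.25 (adjusted p = 0.0032). In ΔWAPL 1.14 TCEAL2 was at 8.27, 7.66 and 8.69 CPM against 6.63, 6.32 and 6.30 CPM in control B, with a log2 fold change of 0.35 ± 0.09 (adjusted p = 0.032) that was lost without control B replicate 1, 2 or 3 or ΔWAPL 1.14 replicate 1 or 3 (adjusted p = 0.052 to 0.12). In ΔWAPL 3.3 it was at 2.44, 2.76 and 1.79 CPM and in ΔSCC4 at 4.55, 3.46 and 3.94 CPM, and neither line passed against control A. TCEAL6 had 3 counts in all libraries.

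Of the 5 TFIIS elongation factor genes, whose proteins the TCEAL proteins resemble, 5 were tested over the controls. In ΔWAPL 1.14, where 20.1% of all genes tested passed and 11.4% were lower, 2 passed and none did in the other lines. They were TCEA3 and TCEANC, both lower, with log2 fold changes of -1.63 ± 0.34 and -0.51 ± 0.11 (adjusted p = 0.016 for TCEANC). TCEA3 was too low to be tested between ΔWAPL/ΔSCC4 and ΔWAPL 3.3, and in ΔWAPL 1.14 it passed the filter only through control B. Its value is therefore a description, and the count of 2 supports nothing. TCEANC was lost without control B replicate 1 or ΔWAPL 1.14 replicate 1 or 2 (adjusted p = 0.057 to 0.069). The ARMCX and GASP genes, further relatives that also lie within 1 Mb of the members, had 6 of 9 genes tested. In ΔWAPL 1.14, where 8.7% of all genes tested were higher, 3 of the 6 were higher, namely GPRASP2 (0.50 ± 0.08, adjusted p = 0.0052), GPRASP3 (0.42 ± 0.06, adjusted p = 0.0041) and ARMCX3 (0.38 ± 0.09, adjusted p = 0.030), and the median of the list was 0.40 against 0.0015 over all genes tested. ARMCX3 was lost without control B replicate 1 or any ΔWAPL 1.14 replicate (adjusted p = 0.079 to 0.12). In the other comparisons no gene of this list passed with edgeR. The medians of the TFIIS list in ΔWAPL clones 3.3 and 1.14, ΔSCC4 and the double knockout were -0.31, -0.28, -0.21 and -0.22. Over all genes tested they were between -0.0047 and 0.0015.

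Genes of p75 receptor signalling, into which BEX1 and BEX3 bind, are given next, and BEX3 itself did not pass in any comparison. Of 10 genes 6 were tested, with medians of -0.05, 0.01, 0.04 and 0.12 in the same lines. NTRK3, the receptor of neurotrophin 3, had 3 counts in the 3 control A libraries and 89, 57 and 96 in ΔWAPL 3.3, ΔSCC4 and ΔWAPL/ΔSCC4. The ratios of control A to these lines were 0.0343 (0.00695 to 0.104), 0.0432 (0.00865 to 0.133) and 0.0333 (0.00675 to 0.1), with exact counting intervals. In ΔWAPL 1.14 NTRK3 had 71 counts, at 1.37 ± 0.233 CPM, against 16 in control B, at 0.341 ± 0.174 CPM, a ratio of 0.249 (0.135 to 0.433). NTRK3 passed the filter only through its knockout libraries, so no test of it over the controls is given. NGFR, which encodes the p75 receptor itself, was lower in ΔWAPL 1.14, at 2.84 ± 0.330 against 8.64 ± 0.628 CPM (-1.61 ± 0.12, adjusted p = 0.00012). In ΔWAPL/ΔSCC4 NGFR was higher, at 9.67 ± 0.987 against 4.44 ± 0.558 CPM in control A (1.12 ± 0.16, adjusted p = 0.0010) and 4.12 ± 1.04 CPM in ΔWAPL 3.3 (1.24 ± 0.18, adjusted p = 0.00016). The controls differed for NGFR as well (0.95 ± 0.15, adjusted p = 0.031), a call lost without any control A replicate or control B replicate 1 or 3 (adjusted p = 0.052 to 0.21). With all 6 controls pooled NGFR no longer passed in ΔWAPL/ΔSCC4 (0.56, adjusted p = 0.27). MAGED1, an adaptor of the same receptor, was higher in ΔWAPL 1.14 (0.28 ± 0.06, adjusted p = 0.015), lost without ΔWAPL 1.14 replicate 1 or 3 (adjusted p = 0.055 and 0.056).

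Over the 18 libraries, the 12975 other genes with enough counts in some libraries were ranked by Pearson's r of their log2 CPM with that of TCEAL9. The ranking is a description with no test, since the libraries fall into 6 groups and share the knockouts. The 5 genes of highest r were TAFA4 (0.947), EFEMP1 (0.931), RNF24 (0.921), RASSF2 (0.919) and HOXC11 (0.918), none on the X chromosome. TAFA4, a secreted chemokine-like protein, was at 1.48 ± 0.490 CPM in control A and 2.40 ± 0.185 in control B, at 0.627 ± 0.184 in ΔWAPL 1.14 and at 0 counts in the other knockout lines. EFEMP1 was at 0.767 ± 0.294 and 0.768 ± 0.110 CPM in controls A and B and at 0.341 ± 0.0950 in ΔWAPL 1.14. In the other knockout lines its means were 0 to 0.0339 CPM. These genes were kept through their higher groups, and their r rests in part on values at the floor. HOXC11, a homeobox gene, was at 1.87 ± 0.402 and 2.19 ± 0.213 CPM in the controls, at 0.737 ± 0.150 and 0.871 ± 0.199 in ΔWAPL 3.3 and 1.14, and at 0.0339 ± 0.0588 and 0.197 ± 0.0995 in ΔSCC4 and ΔWAPL/ΔSCC4. RASSF2, with a Ras association domain, fell over a smaller range, from 39.5 ± 2.86 CPM in control A to 24.7 ± 1.20 in ΔSCC4. The order depended on the measure. By Spearman's rho the first 5 were CRYM, RNF24, HOXC11, GLIS3 and SSBP2, with TAFA4 at rank 78 and EFEMP1 at rank 60, and with a prior count of 0.5 in place of 2 the first 5 by r were TAFA4, ADAMTSL1, RASSF2, NKX2-1 and HOXC11. Among the paralogs TCEAL8 was at rank 118 with r = 0.760, at rank 797 by Spearman's rho (0.491) and at rank 236 with the smaller prior count. By Pearson's r, TCEAL4, TCEAL3, BEX3 and BEX5 had r between 0.184 and 0.394. BEX4 (-0.255) and TCEAL1 (-0.495) had negative values.

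**Figure D4:**
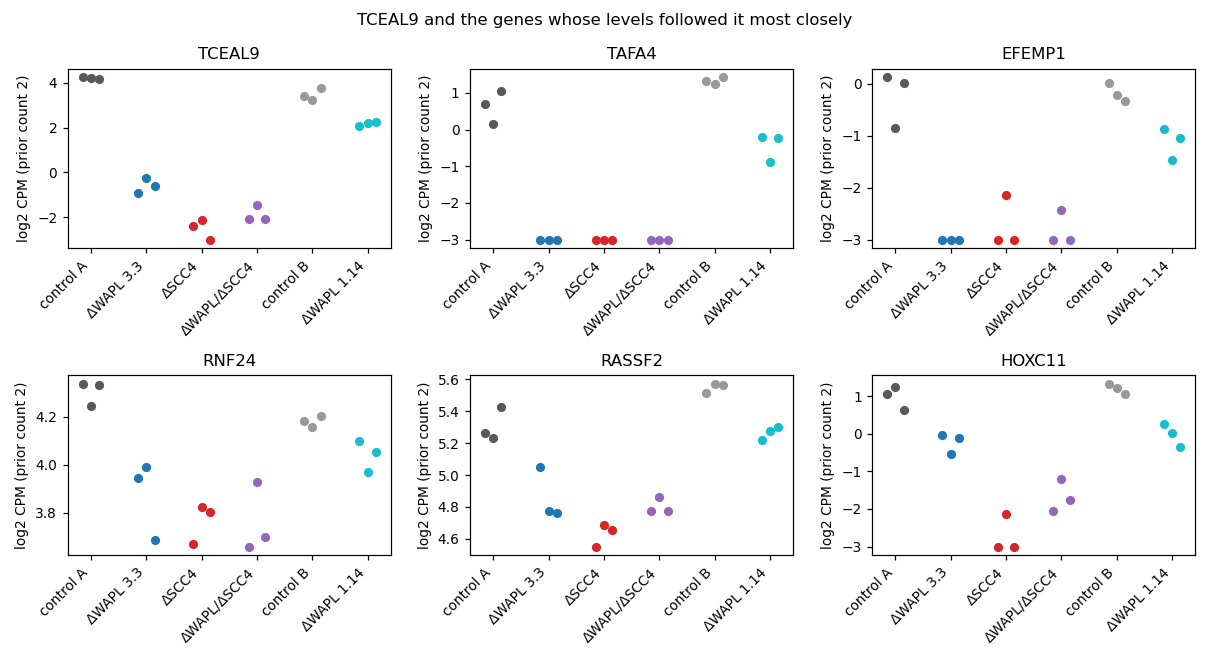
Log2 CPM (prior count 2) of TCEAL9 and of the 5 genes with the highest Pearson's r to it, 1 point per library in the 6 groups. TAFA4 and HOXC11, like TCEAL9, are highest in the controls. TAFA4 keeps an intermediate level in ΔWAPL 1.14 alone, while HOXC11 does so in ΔWAPL 3.3 as well, and its libraries of these clones overlap. RNF24 and RASSF2 vary over a narrower range.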

How the data were processed

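Strand-specific libraries of polyadenylated RNA were made from HAP1 cells with the TruSeq kit and sequenced on a HiSeq2000. Reads were aligned by the authors with TopHat (2.1.1 in the methods, TopHat2 2.0.9 in the submitters' processing notes, build hg19) and they deposited raw HTSeq counts per gene for each library, without normalization. The gene annotation of the counting is not given in the sources used here. Summary rows were left out of the totals, and per library 4.04 to 5.22% of reads had no feature, 1.47 to 1.73% were ambiguous and 14.3 to 16.1% were not unique.

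Positions and symbols were taken from GENCODE on GRCh37, in which 19637 of 20329 identifiers (96.6%) were found, and promoters from RefSeq. No protein sequences were used. Coding sequences were aligned globally with Biopython 1.88 and exact stretches of 50 bases were compared across transcripts.

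The deposited counts were tested with edgeR 4.0.16 in R 4.3.3, with the quasi-likelihood fit, TMM normalization and filterByExpr at its defaults, on the groups of each of 8 comparisons, with Benjamini-Hochberg adjustment over all genes tested and a threshold of 0.05. The code was tested on simulated data. Ratios of summed counts carry exact 95% intervals. CPM and RPKM were computed from the counts, and a sum of 0 was given a limit of 3 counts. An exact permutation of 3 against 3 libraries cannot go below p = 0.1 and was not used. The 18 pairs of replicates differed by 1.61 to 52.0 in chi-square per degree of freedom, above sampling noise, and 0 were identical.

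The members and gene lists were chosen with earlier results of these data known. From each list at most 4 genes were named, those past the threshold in most of the 5 knockout comparisons, then by the largest change, and TCEANC2 for its interaction. TCEAL9 was left untested. Alternatives were DESeq2 1.42.0, its size factors in edgeR, no filter, at least 10 counts in every library, 1 fit over all 18 libraries, a replicate block, all 6 controls, and leaving out each library.

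Replicate numbers were taken to pair 2 groups where the correlation over genes of the deviations of each same-numbered pair from the group means was over 0.1. This held for ΔSCC4 and control A (0.676, 0.115 and 0.615) and in none of the other comparisons of 2 groups. The pairing comes from these values, since no label names a shared batch.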

Additional observations from a re-analysis of the deposited data

Results flagged for a closer look

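The test of a difference between 2 effects passed for 5 genes outside the 10 described, and for none of the paralogs of TCEAL9. All values are differences of log2 fold changes from edgeR with adjustment over all genes tested. Clone and set of libraries cannot be told apart in the first pair.

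The change of TCEAL2 on WAPL loss was lower in clone 3.3 than in clone 1.14, by a difference of -1.15 ± 0.28 (adjusted p = 0.045). It was lost without any 1 library other than control A replicates 1 and 3, in 10 of 12 fits, with adjusted p up to 0.12. For NGFR the difference between the clones was 1.5 ± 0.25 (adjusted p = 0.0036), with lower RNA in ΔWAPL 1.14 than in control B.

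The change on loss of SCC4 differed between cells with and without WAPL for NGFR, by 1.60 ± 0.29 (adjusted p = 0.0019), higher where WAPL was also lost. For NTRK3 the difference was -4.31 ± 0.54 (adjusted p = 7.444e-05), but control A held 3 NTRK3 counts in all and NTRK3 passed the filter only through its knockout libraries, so its size depends on the prior count and the test is no support. For TCEANC2, a TFIIS relative, it was 1.07 ± 0.26 (adjusted p = 0.015), and for TMSB15A -0.59 ± 0.14 (adjusted p = 0.011). These values for NGFR, TCEANC2 and TMSB15A kept their direction and their call in each of the 12 fits without 1 library.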

How the results depend on the processing

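TCEAL8 was tested only through its controls, so its calls are no sign of stability. Requiring at least 10 counts in every library removed TCEAL8, so the paralogs called went from 1 to 0 in each of the 4 lines, and genes called for the difference between clones went to 211. In 1 fit over all 18 libraries the paralogs called became 2 in ΔWAPL 3.3 and 1 between ΔWAPL/ΔSCC4 and ΔWAPL 3.3, each by BEX5, and the genes called 1753 in ΔWAPL 3.3, 2556 in ΔSCC4 and 408 between the controls. With no filter 2 paralogs were called in ΔWAPL 1.14, the second being BEX2, and 127 genes between the controls. With all 6 controls 2718 genes were called in ΔSCC4, and with DESeq2 168 between the controls.

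With the replicate block 5754 genes were called in ΔSCC4, whose libraries were taken to pair with control A from these same counts. Between the controls, whose libraries share only a number, 162 were called. TCEAL2 lost its calls in ΔWAPL 1.14 (adjusted p = 0.052) and between the clones (adjusted p = 0.078), and TMSB15A its call in ΔWAPL 3.3 (adjusted p = 0.32).

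Leaving out 1 library, the genes called ranged from 686 to 1180 in ΔWAPL 3.3, 1415 to 4820 in ΔWAPL 1.14, 662 to 2317 in ΔSCC4, 586 to 1552 in ΔWAPL/ΔSCC4, 861 to 1805 between the last and ΔWAPL 3.3, 218 to 372 for the clones and 1114 to 1747 for WAPL by SCC4. Between the controls they ranged from 0, without control A replicate 2, where 857 genes had an unadjusted p under 0.05, to 107. Mean TCEAL9 levels ranged from 18.1 to 18.9 CPM in control A, 9.80 to 11.98 in control B, 4.29 to 4.52 in ΔWAPL 1.14, 0.465 to 0.619 in ΔWAPL 3.3 and 0.113 to 0.180 in ΔWAPL/ΔSCC4. In ΔSCC4 they ranged from 0.0325, without replicate 2, to 0.0834, around the mean of 0.0556. The other 419 values, for the 14 genes outside the members, kept their direction, and 67 lost their call. Those of NTRK3, ESX1 and TCEA3 are no sign of stability, since these genes passed the filter only through the higher group. Depth limits TCEAL8, BEX2 and the low groups of TCEAL9.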
